A study of Rattus norvegicus with 5 samples.

Results

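The 6 genes of the aldehyde dehydrogenase family described here, measured by 7 probe sets, were followed across INS-1 cells and the clones made from them. The genes were Aldh1a1, Aldh1a2, Aldh2, Aldh3a2, Aldh6a1 and Aldh9a1, and every probe set annotated to 1 of these symbols was taken. They were 6 of 10411 genes, and 7 of 15866 probe sets, on the array. The genes were chosen on signals of these same 5 arrays, above all because Aldh1a1 and Aldh1a2 each stood out in 1 clone. The levels of those 2 genes are therefore given as a description, with no p-value.

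Clones 5-3.19, 5-3.14, 1-1.16 and 1-1.2 were compared with parental INS-1, a rat insulinoma line that secretes insulin, with 1 array of total RNA for each. All 4 clones carry an FRT recombination site for placing a gene with Flp recombinase, and a tetracycline repressor that holds such a gene silent until tetracycline is given. The labels mention neither a placed gene nor tetracycline treatment for these samples, and each array stands for 1 clonal line. Clone names fall into the sets 5-3 and 1-1, and the labels do not say how clones of a set are related. Clones of the same set are called sister clones here by name only. With 1 array for each line, p-values between sets rest on the spread between clones of a set, partly borrowed from all probe sets fitted. No spread between repeat arrays of a line was measured. The parental line and the handling of its array cannot be told apart.

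Aldehyde dehydrogenases oxidise aldehydes to carboxylic acids with NAD or NADP. Enzymes of the Aldh1a class convert retinaldehyde to retinoic acid, which acts on nuclear RAR and RXR receptors and takes part in pancreas development. Aldh2 is the mitochondrial enzyme that clears acetaldehyde, and the other members serve fatty aldehydes, valine breakdown and the synthesis of carnitine.

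The signal is a linear intensity in arbitrary units, scaled to the same trimmed mean of 1000.24 to 1000.28 on every array, with a median of 342.4 to 371.6. Differences and folds were taken on log2(signal + 21.8), so a fold understates the change of a dim probe set. A probe set was tested when its mean log2 level corresponded to a signal of at least about 194. Of the 7 member probe sets, 6 passed this level, with 9520 probe sets in all, and Aldh2 did not. Of 15 beta cell markers 9 were on the array and all 9 passed, with Ins1 at 34381 to 42217. None of the 7 acinar, 5 endothelial and leukocyte or 6 fibroblast markers on the array passed, and 1 of 3 duct markers did, Krt7.

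Both retinaldehyde enzyme genes stood out on a single array, and the arrays were different ones. Their upstream sequences are shown because these 2 genes carry the contrast between clones. Each is the 250 bases before the start that the RefSeq promoter table uses for the gene, build GRCr8, plus strand, with matches to the searched motifs in capitals. The annotated span of Aldh1a1 begins further upstream than this start, so its window lies inside that span, while the Aldh1a2 window ends where its gene begins. The Aldh1a1 window is chr1:227537370-227537619 and the Aldh1a2 window is chr8:80758391-80758640.
Aldh1a1: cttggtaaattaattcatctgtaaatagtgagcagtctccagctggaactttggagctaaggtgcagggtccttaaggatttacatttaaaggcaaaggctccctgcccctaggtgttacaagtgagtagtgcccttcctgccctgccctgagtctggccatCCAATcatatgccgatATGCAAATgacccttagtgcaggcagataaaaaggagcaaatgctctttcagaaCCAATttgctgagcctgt
Aldh1a2: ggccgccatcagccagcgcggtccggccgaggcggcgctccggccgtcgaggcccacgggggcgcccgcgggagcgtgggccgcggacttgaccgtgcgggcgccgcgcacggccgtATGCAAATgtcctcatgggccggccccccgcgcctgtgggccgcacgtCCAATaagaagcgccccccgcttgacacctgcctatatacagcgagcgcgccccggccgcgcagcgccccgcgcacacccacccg

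The motifs searched, on both strands, were the octamer ATGCAAAT, the CCAAT box CCAAT, the TATA box TATAAA, the GC box GGGCGG and the nuclear receptor motif AGGTCA, none overlapping another. Both windows held the octamer, a motif known to bind POU factors, which 1.56% of 33469 rat windows of the same length also held. It began 72 bases before the Aldh1a1 start and 133 bases before the Aldh1a2 start. The octamer was added to the search after the sequences had been read, so its share of windows is no measure of how unusual the match is. Aldh1a1 held a pair of CCAAT boxes, beginning 88 and 18 bases before the start, and Aldh1a2 held 1, beginning 85 bases before it. The CCAAT letters occurred in 34.0% of windows. Neither window matched the other searched motifs, which occurred in 12.9% (TATA box), 30.5% (GC box) and 14.1% (nuclear receptor motif) of windows. The windows differed in composition: 77.2% G and C with 41 CG pairs for Aldh1a2, and 46.4% with 1 CG pair for Aldh1a1. The median over all windows was 51.2% with 5 CG pairs. A match in these letters is a description of sequence, and the arrays do not measure binding or methylation.

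Aldh1a1, which encodes a cytosolic retinaldehyde dehydrogenase, had a signal of 5664 in clone 5-3.19. The signal was 664 in its sister clone 5-3.14, 829.6 in clone 1-1.16, 407.5 in clone 1-1.2 and 599 in parental INS-1. Clone 5-3.19 alone was high, and the other 4 arrays lay within 1.98-fold of each other. Clone 5-3.19 was 8.29-fold above 5-3.14 and 9.16-fold above parental INS-1 on the offset scale. Its log2 gap to the next array, 1-1.16, was 2.74, and the standard deviation of the other 4 arrays was 0.41 on the same scale. Over all tested probe sets, 0.294% (28 of 9520) were at least 2-fold above every other array in 5-3.19. Aldh1a1 had the largest such gap, and the next was that of F5, a coagulation factor gene, at 1.42. Aldh1a1 was chosen for standing out on this array, so its gap, rank and share are a description only.

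Within set 1-1, Aldh1a1 was 1.98-fold higher in 1-1.16 than in 1-1.2. By set, Aldh1a1 averaged 3164 ± 3535.5 over 5-3.19 and 5-3.14, and 619 ± 298 over 1-1.16 and 1-1.2 (SD, n = 2 each). The standard deviation exceeded the mean in set 5-3, and the signals of the sets overlapped.

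Aldh1a2, another retinaldehyde dehydrogenase, the main source of retinoic acid in the early vertebrate embryo, had a signal of 877 in clone 1-1.2. It read 120.9 in 5-3.19, 94.6 in 5-3.14, 139.7 in its sister 1-1.16 and 229 in parental INS-1. Clone 1-1.2 alone was high, and parental INS-1 came next. Clone 1-1.2 was 3.58-fold above parental INS-1 and 5.57-fold above 1-1.16. The log2 gap to the next array was 1.84, against a standard deviation of 0.47 among the other 4 arrays. Only 0.084% of tested probe sets (8 of 9520) were at least 2-fold above every other array in 1-1.2. The gap of Aldh1a2 was the second in that clone, after that of Nr4a3 and before that of Hopx at 1.60. The mean level of its other 4 arrays was below the level for testing, so Aldh1a2 was included only through 1-1.2, and its rank and share are a description of a gene chosen for this array.

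In the other 3 clones Aldh1a2 lay below parental INS-1, by 2.16-fold in 5-3.14, 1.76-fold in 5-3.19 and 1.55-fold in 1-1.16. These are dim signals, and the order of 5-3.19, 1-1.16 and 5-3.14 rests on small differences. By set, Aldh1a2 averaged 108 ± 18.6 over 5-3.19 and 5-3.14, and 509 ± 522 over 1-1.16 and 1-1.2 (SD, n = 2 each). The sets did not overlap, but the 1-1 average rests on 1-1.2.

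The highest clone for Aldh1a1 was thus not the highest for Aldh1a2. In 5-3.19 the Aldh1a2 signal was among the low ones, and in 1-1.2 the Aldh1a1 signal was the lowest of the 5 arrays. Markers of islet cells also differed between these arrays. Gcg, the glucagon gene of alpha cells, read 24434 in 5-3.19 and 20550 in 5-3.14. It read 17772 in 1-1.16, 2064 in 1-1.2 and 6875 in parental INS-1. Ins2, 1 of the rat insulin genes, read 30224 in 1-1.2, 3953 to 5381 in the other 3 clones and 28816 in parental INS-1. Iapp was also highest in 1-1.2, at 33945, and read 19160 in 5-3.19. Nkx6-1 went the other way, at 1053 in 1-1.2 and 2158 in 5-3.19. Slc2a2, the glucose transporter gene, read 10531 in 5-3.19, 4153 in 5-3.14, 6485 in 1-1.16, 5337.5 in 1-1.2 and 8926 in parental INS-1. The 9 beta cell markers summed to 92278 to 149040 in the clones, highest in 1-1.2, and to 148800 in parental INS-1. Of these markers Ins2 had the widest range of signal, so the sum largely follows Ins2. The summed signal of the 4 measured markers of other islet cells was 2143 to 24562 in the clones and 7022 in parental INS-1, nearly all of it Gcg, and Sst, Ppy and Ghrl read under 83 on every array. The part of these differences in the Aldh1a1 and Aldh1a2 signals was not tested. In bulk RNA, more expressing cells and more RNA for each cell cannot be told apart.

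**Figure D1:**
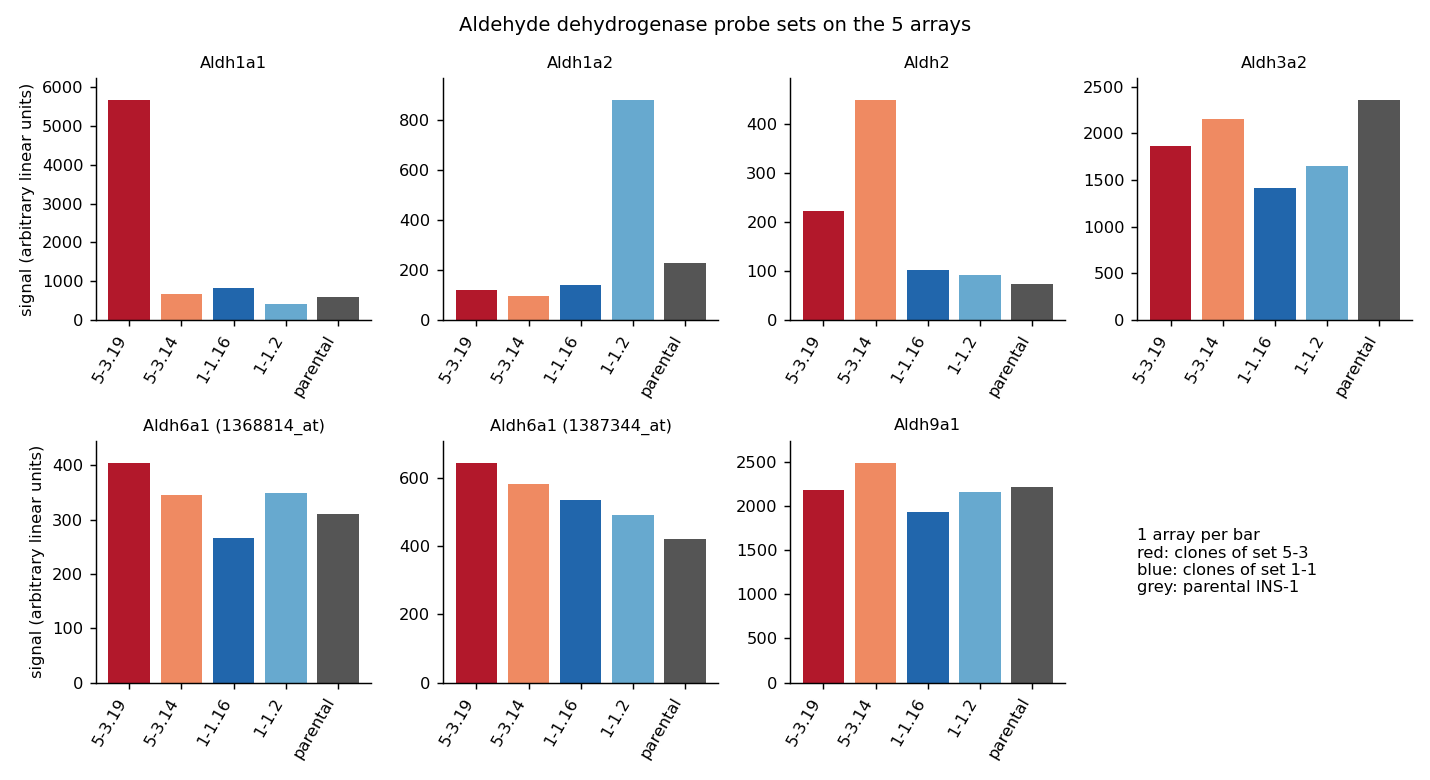
Signal in arbitrary linear units (vertical axis, from 0, a separate scale for each panel) of the 7 member probe sets on the 5 arrays, 1 bar per array. Aldh1a1 is high only in 5-3.19 (5664) and Aldh1a2 only in 1-1.2 (877), Aldh2 is higher in both 5-3 clones (449 and 222), and the other 4 panels vary little.

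Aldh2, the mitochondrial enzyme that oxidises acetaldehyde formed from ethanol, was higher in both 5-3 clones than on the other 3 arrays. Its signal was 222 in 5-3.19 and 449 in 5-3.14, against 101.6 in 1-1.16, 91.3 in 1-1.2 and 72.6 in parental INS-1. The sets did not overlap, and all 4 clones were above parental INS-1. The 5-3 clones averaged 335.5 ± 161 and the 1-1 clones 96.5 ± 7.28 (SD, n = 2 each). On the offset log2 scale the sets differed by 2.87-fold. Relative to parental INS-1, Aldh2 was 4.99-fold higher in 5-3.14 and 2.58-fold higher in 5-3.19, and 1.31-fold and 1.20-fold higher in 1-1.16 and 1-1.2.

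Because its mean level was too low, Aldh2 had no test among the 9520 probe sets. When all 15866 probe sets were fitted with no limit on level, its log2 difference between set 5-3 and set 1-1 was 1.52 ± 0.43 (SE). The limma p was 0.0122 and the adjusted p was 0.259, so Aldh2 did not pass. The 5-3 sister clones themselves differed by 1.93-fold, with 5-3.19 the lower.

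Aldh3a2 encodes the membrane-bound fatty aldehyde dehydrogenase, whose loss causes Sjögren-Larsson syndrome in humans. Its signal was 1867 in 5-3.19, 2158 in 5-3.14, 1419 in 1-1.16 and 1656 in 1-1.2, and 2355 in parental INS-1. All 4 clones were below parental INS-1, with 1-1.16 the lowest, and the sets did not overlap. The clones averaged 1775 ± 314 (SD, n = 4), and the fitted log2 difference from parental INS-1 was −0.42 ± 0.30 (SE), with a limma adjusted p of 0.99957. Between the sets, the 5-3 clones averaged 2012 ± 206 and the 1-1 clones 1537.5 ± 167 (SD, n = 2 each). That log2 difference was 0.38 ± 0.22 (SE), with a limma adjusted p of 0.484.

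Aldh6a1, the mitochondrial methylmalonate semialdehyde dehydrogenase of valine and thymine breakdown, had 2 probe sets, annotated to the same transcript record. Probe set 1387344_at read 645 in 5-3.19, 582.5 in 5-3.14, 536.5 in 1-1.16 and 492 in 1-1.2, and 423 in parental INS-1. All 4 clones were above parental INS-1 by this probe set, by 0.21 to 0.58 on the log2 scale. Probe set 1368814_at read 404 in 5-3.19, 345 in 5-3.14, 267 in 1-1.16 and 349 in 1-1.2, and 311 in parental INS-1. Here 1-1.16 was below parental INS-1 and the sets overlapped, so the probe sets disagree in the order of the arrays. Between set 5-3 and set 1-1 the log2 differences were 0.24 ± 0.23 and 0.27 ± 0.27 (SE), with limma adjusted p of 0.690 and 0.710. Clone 5-3.19 was the highest array by both.

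Aldh9a1 oxidises trimethylaminobutyraldehyde in the synthesis of carnitine, and aminobutyraldehyde to GABA. Its signal was 2177 in 5-3.19, 2483 in 5-3.14, 1935 in 1-1.16 and 2157 in 1-1.2, and 2207 in parental INS-1. The highest and the lowest array were only 1.28-fold apart, the narrowest span among the members. The clones averaged 2188 ± 225 (SD, n = 4), a log2 difference of −0.02 ± 0.26 (SE) from parental INS-1. Its log2 difference between the sets was 0.18 ± 0.21 (SE), with a limma adjusted p of 0.750.

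Counted over the 6 member probe sets past the level for testing, 1 was at least 2-fold from parental INS-1 in each of 5-3.19, 5-3.14 and 1-1.2, and 0 in 1-1.16. The genes were Aldh1a1 in 5-3.19, Aldh1a2, lower, in 5-3.14, and Aldh1a2 in 1-1.2. Aldh2, not among the 6, was also past 2-fold in both 5-3 clones. The shares of all tested probe sets past 2-fold were 5.16% in 5-3.19, 8.92% in 5-3.14, 7.63% in 1-1.16 and 5.04% in 1-1.2. Sister clones differed by 2-fold in Aldh1a1 alone for 5-3.19 against 5-3.14 and in Aldh1a2 alone for 1-1.16 against 1-1.2, where 6.59% and 2.67% of tested probe sets did.

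Over the 5 arrays, 2 of these 6 spanned at least 2-fold, Aldh1a1 and Aldh1a2, against 25.6% of tested probe sets. The sets did not overlap for 4 of the 6 (5 of 7 with Aldh2), against 46.6% of tested probe sets. The selection of members used these signals, so nothing is read from the counts. The median difference of the 7 member probe sets between set 5-3 and set 1-1 was 0.27 on the log2 scale, and that of all tested probe sets was −0.04.

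**Figure D2:**
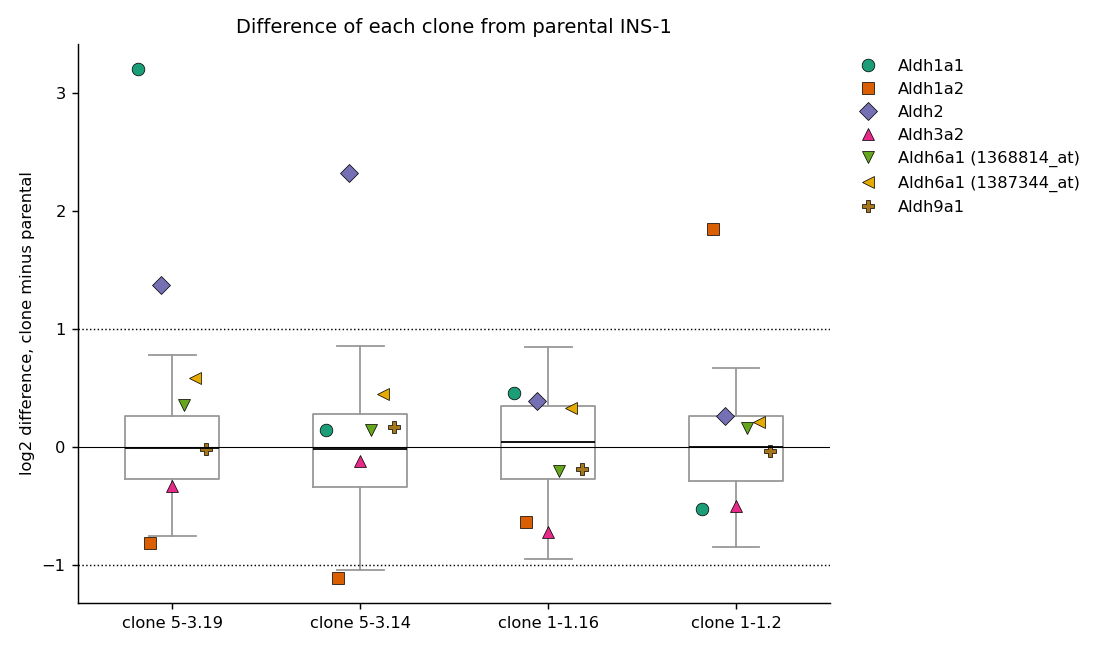
Log2 difference of each clone from parental INS-1 (vertical axis) for the 7 member probe sets (symbols), 1 array per clone. Grey boxes give the quartiles and whiskers the 5th to 95th percentiles of 9520 tested probe sets, with dotted lines at 2-fold. Aldh1a1 in 5-3.19 (3.20), Aldh2 in 5-3.14 (2.32) and 5-3.19 (1.37), and Aldh1a2 in 1-1.2 (1.84) lie above the whiskers.

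By limma with Benjamini-Hochberg adjustment, 0.42% of tested probe sets were called between set 5-3 and set 1-1 (40 of 9520, 21 higher and 19 lower), and none of the 4 probe sets of Aldh3a2, Aldh6a1 and Aldh9a1 was among them. The number called was 221 without 5-3.14 and 224 without 5-3.19. Between the 4 clones and parental INS-1 the same test called 0.0% (0 of 9520). Without adjustment, limma gave 349 of them a p under 0.05. A 3-group fit, which keeps the difference between sets out of the error, also called 0 of 9520 for this contrast. It gave 632 an unadjusted limma p under 0.05, and the lowest adjusted p was 0.239. The limma adjusted p of Crabp1, Rai14, Maob, Acss2 and Acsl3, given below from the 2-group fit, were 0.376 to 0.720 in the 3-group fit (Rai14 and Maob). The unadjusted limma p of the 4 probe sets of Aldh3a2, Aldh6a1 and Aldh9a1 was 0.125 to 0.411 between sets (Aldh3a2 and Aldh9a1) and 0.206 to 0.946 between clones and parental INS-1 (Aldh6a1 and Aldh9a1). With 0.42% of tested probe sets called between sets, a short list of genes would seldom hold a call. With 0.0% called for clones against parental INS-1, no list could. That none was called, here and in the lists below, therefore says nothing about these genes.

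Of 14 other aldehyde dehydrogenase genes listed, 7 were on the array and 5 were tested. None was called in either comparison. Past 2-fold from parental INS-1 were 0 of 5 in 5-3.14, 1-1.16 and 1-1.2, where 8.92%, 7.63% and 5.04% of all tested probe sets were. In 5-3.19, 1 of 5 was past 2-fold, where 5.16% of all tested probe sets were. This was Aldh4a1, the mitochondrial enzyme of proline breakdown, at 522 in 5-3.19, 917 in 5-3.14, 572 in 1-1.16 and 837 in 1-1.2, against 1128 in parental INS-1. It was below parental INS-1 in all 4 clones, by 2.12-fold in 5-3.19. Aldh5a1, the succinate semialdehyde dehydrogenase that ends the breakdown of GABA, was likewise lowest in 5-3.19, at 212, against 399 in parental INS-1. Its other clones read 335 in 5-3.14, 396.5 in 1-1.16 and 299 in 1-1.2.

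Aldh7a1, which acts in lysine breakdown, read 3868 in 5-3.19, 5469 in 5-3.14, 5474.5 in 1-1.16 and 6964 in 1-1.2, and 4429 in parental INS-1. Clone 5-3.19 was the lowest array and 1-1.2 the highest. Aldh18a1, the first enzyme of proline synthesis, spanned 3299.7 to 4487 and Aldh16a1 spanned 693 to 1175 over the 5 arrays. Clone 5-3.19 had the lowest signal of the 5 arrays in all 5 of these tested genes (Aldh4a1, Aldh5a1, Aldh7a1, Aldh16a1 and Aldh18a1). This pattern was picked out after the values were seen. The margin was small for Aldh18a1 (3299.7, then 3377 in parental INS-1) and for Aldh16a1 (693, then 721 in 1-1.16). No member probe set was lowest in 5-3.19. The share of all tested probe sets lowest in 5-3.19 was not counted, so nothing is read from the pattern. Aldh3a1 and Aldh1l1 were dim, at 13.7 to 101.5 and 22.0 to 117.4, and did not pass the level for testing.

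Of 27 listed genes for retinol transport, oxidation and its reversal, 15 were on the array and 5 were tested, and none was called in either comparison. Of the 5, only Dhrs3 was past 2-fold from parental INS-1 in 5-3.14, lower, where 8.92% of all tested probe sets were past 2-fold. None of the 5 was in 5-3.19, 1-1.16 or 1-1.2, where 5.16%, 7.63% and 5.04% were. Rdh10, the retinol dehydrogenase that makes retinaldehyde in embryos, read 258 in 5-3.19, 314 in 5-3.14, 469 in 1-1.16 and 382 in 1-1.2, and 340.5 in parental INS-1. The 5-3 clones were below every other array and the 1-1 clones above, with a log2 difference between sets of −0.54 ± 0.27 (SE) and a limma adjusted p of 0.425. Dhrs3, which turns retinaldehyde back to retinol, read 337 in 5-3.19 and 98.8 in 5-3.14. It read 187 in 1-1.16, 213 in 1-1.2 and 255.5 in parental INS-1. Dhrs3 was highest in 5-3.19, at only 1.29-fold over parental INS-1, and lowest in 5-3.14, at 2.30-fold below it. A relation to Aldh1a1 was not tested. Rdh11 spanned 415 to 613 and Dhrs4 spanned 566 to 947. The vitamin A storage and uptake genes Lrat, Rbp4 and Stra6 read no more than 50.6, 39.8 and 220 and were not tested.

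Among 18 listed genes of retinoic acid binding, receptors and breakdown, 16 were on the array and 8 were tested. None was called, where 0.42% of all tested probe sets were between sets and 0.0% between clones and parental INS-1. Crabp1, a cytosolic retinoic acid binding protein, read 533 in 5-3.19, 96.2 in 5-3.14, 280 in 1-1.16 and 195 in 1-1.2, against 1127 in parental INS-1. All 4 clones were below parental INS-1, by 2.07- to 9.74-fold, and 5-3.19 was the nearest to it. The fitted log2 difference was −2.17 ± 0.74 (SE), with a limma adjusted p of 0.99957. Rxrb, a nuclear receptor that pairs with the retinoic acid receptors, read 345.5 in 5-3.19 and 352.5 in 5-3.14, against 85.8 in 1-1.16 and 150.1 in 1-1.2, and 317 in parental INS-1. The 5-3 clones were close to parental INS-1 and the 1-1 clones lower, with a log2 difference between sets of 1.45 ± 0.33 (SE) and a limma adjusted p of 0.131. Fabp5, a lipid carrier that can bind retinoic acid, spanned 13979 to 20965. The retinoic acid hydroxylase genes Cyp26a1 and Cyp26b1 reached at most 143 and 134.6 and were not tested.

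Of 20 listed genes known to answer to retinoic acid in other systems, 14 were on the array and 5 were tested, with none called. Tgm2, the tissue transglutaminase gene, read 2238 in 5-3.19 and 2160 in 5-3.14, against 645 in 1-1.16, 1320 in 1-1.2 and 2326 in parental INS-1. It was lower in both 1-1 clones, and the log2 difference between sets was 1.23 ± 0.34 (SE, limma adjusted p = 0.185). Rai14 was higher in all 4 clones, with 834 in 5-3.19, 1035 in 5-3.14, 1445 in 1-1.16 and 850.3 in 1-1.2, against 277 in parental INS-1. Its limma adjusted p for clones against parental INS-1 was 0.976. Rarb, a receptor gene that retinoic acid induces in many cells, read 104.6 to 149 and was not tested. Rai14 was past 2-fold above parental INS-1 in all 4 clones. Of the other tested genes of the list, Egr1 and Dhrs3 were past 2-fold below it in 5-3.14 and Tgm2 in 1-1.16. That makes 1 of 5 in 5-3.19, 3 of 5 in 5-3.14, 2 of 5 in 1-1.16 and 1 of 5 in 1-1.2, where 5.16%, 8.92%, 7.63% and 5.04% of all tested probe sets were.

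Aldh2 works beside other enzymes of ethanol and aldehyde metabolism. Of 18 listed genes of ethanol and other aldehyde metabolism, 16 were on the array and 10 were tested, with none called. Gsta4, a glutathione transferase that conjugates the lipid aldehyde hydroxynonenal, read 2210 in 5-3.19, 1000.1 in 5-3.14, 584 in 1-1.16 and 274 in 1-1.2, against 267 in parental INS-1. It was highest in 5-3.19, at 7.72-fold over parental INS-1, and 3.57-fold higher in set 5-3 than in set 1-1 (log2 difference 1.83 ± 0.47, SE, limma adjusted p = 0.164). Maob, a monoamine oxidase that produces aldehydes, read 2486 in 5-3.19, 1676 in 5-3.14, 964.5 in 1-1.16 and 2431 in 1-1.2, and 4397 in parental INS-1. Acss2, which makes acetyl-CoA from the acetate that Aldh2 yields, read 2007.5 to 4034 in the clones and 8557 in parental INS-1. Both were lower in all 4 clones, with limma adjusted p of 0.99957.

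In valine and propionate breakdown, the pathway of Aldh6a1, 23 of 26 listed genes were on the array and 19 were tested, with none called. Bckdhb, a subunit of the branched-chain ketoacid dehydrogenase, read 498 in 5-3.19 and 534.5 in 5-3.14, against 1161 in 1-1.16 and 1601 in 1-1.2, and 789 in parental INS-1. The 5-3 clones lay below parental INS-1 and the 1-1 clones above it. The log2 difference between sets was −1.36 ± 0.25 (SE), with a limma adjusted p of 0.0860. Ivd, of leucine breakdown, was high in 5-3.14 alone, at 2759, against 1212 in 5-3.19, 720.0 in 1-1.16, 1329 in 1-1.2 and 1077 in parental INS-1. The median log2 difference of the 19 genes between sets was −0.18, opposite in sign to both Aldh6a1 probe sets.

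For fatty aldehydes and sphingolipids, the setting of Aldh3a2, 13 of 19 listed genes were on the array and 10 were tested, with none called. Acsl3, which activates long-chain fatty acids, was lower in all 4 clones, as Aldh3a2 was. It read 682 in 5-3.19, 657 in 5-3.14, 890.2 in 1-1.16 and 1061 in 1-1.2, against 1720 in parental INS-1. Its log2 difference of clones from parental INS-1 was −1.07 ± 0.34 (SE, limma adjusted p = 0.99957).

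In the list for carnitine, polyamines and GABA, the setting of Aldh9a1, 18 of 19 genes were on the array and 15 were tested, with none called. Tmlhe, the first enzyme of carnitine synthesis, read 1861 in 5-3.19, 894.5 in 5-3.14, 552 in 1-1.16 and 546 in 1-1.2, against 384 in parental INS-1. It was highest in 5-3.19, by 4.64-fold over parental INS-1, and Aldh9a1 in the same pathway stayed within 1.28-fold over all arrays. Sms, the spermine synthase gene, read 1037 in 5-3.19 and 1430 in 5-3.14, against 211.5 in 1-1.16 and 76.3 in 1-1.2, and 1058 in parental INS-1. Its log2 difference from parental INS-1 was −2.21 in 1-1.16 and −3.46 in 1-1.2, and both 5-3 clones lay within 1.35-fold of parental INS-1. The log2 difference between sets of 3.04 ± 0.43 (SE) came nearest to a call of all listed genes, with a limma adjusted p of 0.0510.

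**Figure D3:**
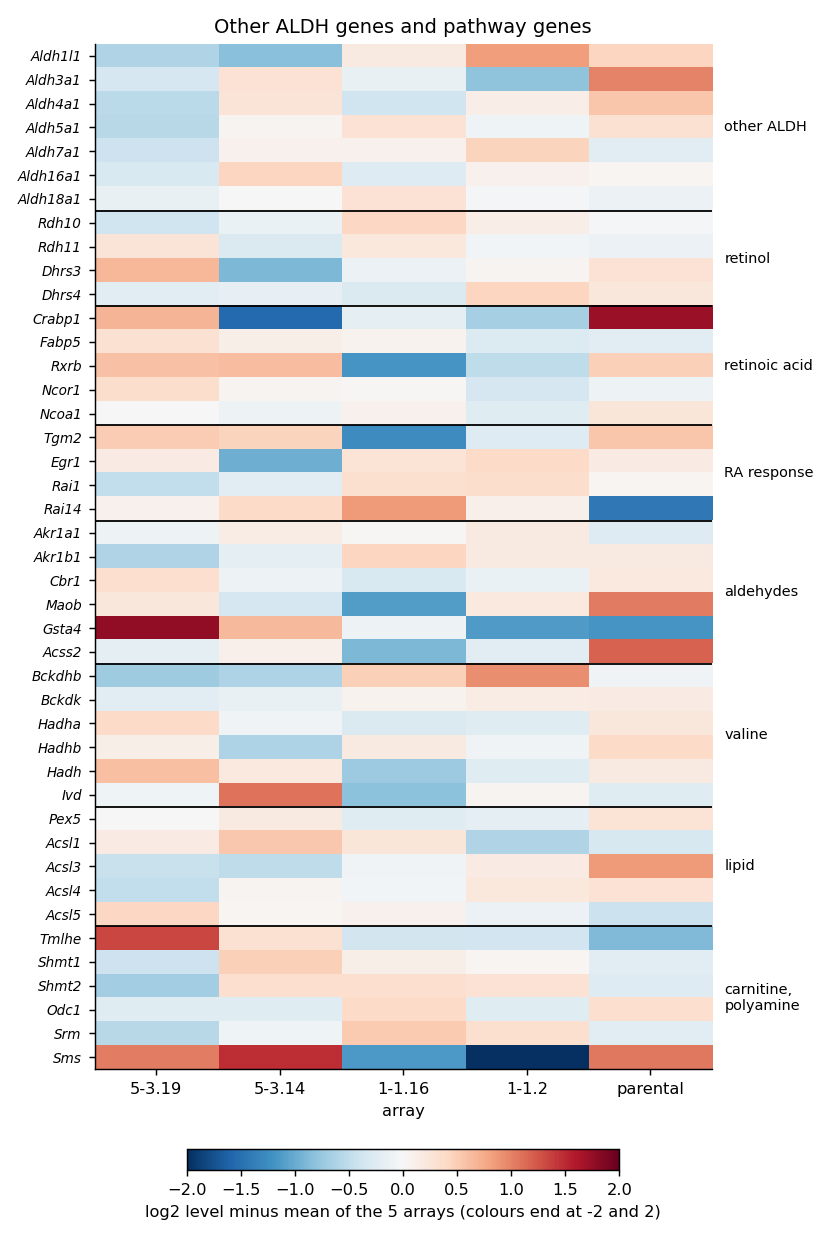
Log2 level of other aldehyde dehydrogenase genes and of the named pathway genes (rows, grouped by list) on the 5 arrays (columns), centred on each gene's mean over the arrays. Red is above and blue below that mean. Gsta4 and Tmlhe are highest in 5-3.19, Sms is lowest in 1-1.2, and Crabp1 is highest in parental INS-1.

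Genes with profiles most like those of the single-clone members were found by the Euclidean distance between log2 profiles centred on their mean over 5 arrays. For Aldh1a1 the nearest were F5 (distance 1.46), Vegp2 (1.46), Gsta4 (1.49), Serpine2 (1.53) and Epas1 (1.55). Each was highest in 5-3.19, by 2.18- to 2.67-fold over the next array, whereas Aldh1a1 was 6.68-fold over it. Epas1, a hypoxia-inducible transcription factor gene, read 3104 in 5-3.19 and 735 in 5-3.14, with 902 in 1-1.16, 845 in 1-1.2 and 1208 in parental INS-1. Its second highest array was parental INS-1, and that of F5, Vegp2, Gsta4 and Serpine2 was 5-3.14. In 5-3.14, F5 and Serpine2 were only 1.14-fold and 1.22-fold over parental INS-1, and Vegp2 and Gsta4 were 2.61-fold and 3.53-fold over it. The log2 gap of 5-3.19 to the next array was 1.42 for F5 and 1.35 for Epas1.

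For Aldh1a2 the nearest was Qdpr, at a distance of 0.66. Qdpr, which regenerates tetrahydrobiopterin, read 8708 in 1-1.2, against 2131 in 5-3.19, 2039.5 in 5-3.14, 2539 in 1-1.16 and 3460 in parental INS-1. Its 5 arrays stood in the same order as those of Aldh1a2. Gad2, which makes GABA, followed at 0.91, with 569 in 1-1.2, against 185.6 in 5-3.19, 116.6 in 5-3.14, 191.5 in 1-1.16 and 301 in parental INS-1. Zcchc12, Inmt and Gucy2c followed at 1.24, 1.38 and 1.41. With 5 arrays, 1 of them far from the rest, such likeness is a description only.

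**Figure D4:**
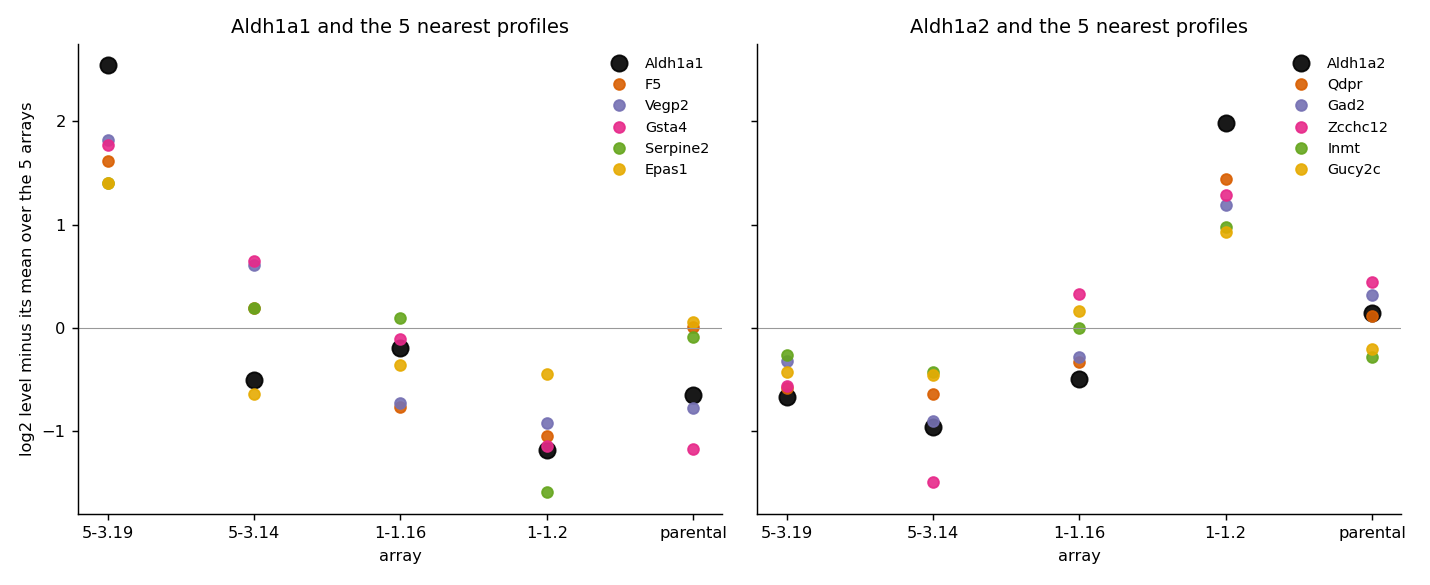
Log2 level minus its mean over the 5 arrays (vertical axis) for Aldh1a1 with its 5 nearest genes (left) and Aldh1a2 with its 5 nearest genes (right), 1 point per array. Aldh1a1 peaks in 5-3.19 above all its neighbours, and Aldh1a2 peaks in 1-1.2 with Qdpr closest to it.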

How the data were processed

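The values the authors deposited are intensities on a linear scale, and their equal trimmed means show a common scaling. The software that made them is not given in the sources used here. Of 15923 probe sets, 57 controls were left out. A platform table gave 1 gene symbol to 12783, of which 12748 matched RefSeq (GRCr8) by gene number. Signals were taken as log2(signal + 21.8), the offset being the 10th percentile of positive signals, and the 9520 probe sets at or above the 40th percentile of mean level were tested.

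R 4.3.3 with limma 3.58.1 (intensity trend) tested the clone sets, 2 clones each, in a 3-group fit with 2 residual degrees of freedom. The clones were compared with parental INS-1 in a 2-group fit with 3, taking the clones' spread for the single parental array. That spread includes the difference between sets, so the 3-group fit was also run for this contrast. p-values were adjusted by Benjamini-Hochberg over all tested probe sets at 0.05. The tests were checked on simulated data, where changes of 2-fold were seldom called. Changes of 4-fold were often missed between clones and parental INS-1, and less often between sets. A probe set not called may therefore still differ. Single clones were compared by folds, with no test.

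The members and lists were chosen with earlier results of these data known. Named genes were all members, all other aldehyde dehydrogenases, per list the 4 with the highest mean signal and the 2 with the widest range, the 5 nearest profiles, and cell markers; not all are given values. Lrat, Rbp4, Stra6, Rarb, Cyp26a1 and Cyp26b1 were named outside this rule, after their values were seen. A gene in a list was represented by the probe set with the highest mean signal. Alternatives covered scaling, offset, filter, variance model, fold limit, probe sets and leaving out each clone. Sequences came from RefSeq tables, build GRCr8; promoters of 5 of the 6 genes were listed.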

Additional observations from a re-analysis of the deposited data

Results flagged for a closer look

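Aldh1a2 was the 1 probe set, of 14 examined for the aldehyde dehydrogenases, past the limit of Dixon's test among the clones. That test divides the gap of the outermost clone by the log2 range of the clones. Aldh1a1 did not pass it, although its log2 gap of 2.74 between 5-3.19 and the next clone was wider than the 2.48 of Aldh1a2. The gap between 1-1.2 and the next of the 4 clones was 0.840 of their whole range, above the 95% limit of Dixon's test for 4 samples. Chance gives about 1 in 20 such results, and 5.03% of all tested probe sets passed the same limit. Aldh1a2 was selected for this clone, so its value is a description and not a test.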

How the results depend on the processing

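The single-clone gaps changed little with the settings run. For Aldh1a1 in 5-3.19 the log2 gap was 2.65 to 2.82 under both scalings and both offsets, and for Aldh1a2 in 1-1.2 it was 1.61 to 1.95. The 40 probe sets called between the sets became 70 with median centring, 64 with an offset 4 times larger, 10 with no filter and 12 with a 60th percentile filter. Without 1 clone the count was 50 to 224 (221 without 5-3.14, 224 without 5-3.19), and the call count of members was 0 to 1. The called member was Aldh1a2 without 1-1.16 and Aldh1a1 without 5-3.14, where the lone sister is the clone that chose the gene, so these calls are no evidence. For Aldh9a1 the log2 difference of clones from parental INS-1, −0.02, was 0.0223 with median centring and −0.0801 to 0.0387 without 1 clone, positive without 1-1.16. Members past 2-fold, Aldh2 included, were 2 of 7 in 5-3.14 and in 5-3.19. In 5-3.14 there was 1 with quantile normalization, an offset 4 times larger or a limit of 3-fold, and in 5-3.19 there was 1 with the larger offset or 3-fold. In 1-1.16 there were 0, and 2 at 1.5-fold. Of 151 values from alternatives, 135 were taken as unchanged. For a count this meant the main count itself or a count within 1.5-fold of it. For a fitted difference it meant the same side of the threshold and the same direction. For a single-clone gap it meant a change smaller than the standard deviation of the other arrays. No fitted difference of a member passed the threshold in any setting, so for these only the direction counted. Aldh6a1 by 1368814_at, 0.27 between sets, was thus taken as unchanged at 0.09 without 1-1.16 and 0.45 without 1-1.2. Many counts of calls were 0 throughout. The tally is therefore no measure of stability. The cause of the changes was not tested. Dim signals limit Aldh2 and Aldh1a2 most, and 1 array per line limits every value.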
